A study of Danio rerio with 10 samples.

Results

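The genes described here encode the nuclear subunits and assembly factors of mitochondrial complex I (NADH:ubiquinone oxidoreductase). They were taken as every row of the deposited array table whose single gene symbol begins with nduf. This gave 39 genes on 44 probe sets, of 15617 probe sets and 8793 genes with 1 symbol in all. The samples were total RNA from zebrafish (Danio rerio) hearts, labelled with biotin and hybridized to Affymetrix Zebrafish GeneChips, with 5 arrays for hypoxia and 5 for normoxia. Per group the labels give 4 biological samples, and array 5 repeats sample 2. The sources used here give neither strain nor age, and neither the oxygen level, the duration of the exposure nor any pooling of hearts.

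Complex I passes electrons from NADH to ubiquinone and pumps protons across the inner mitochondrial membrane. It is L-shaped. The matrix arm holds the NADH-binding site, the chain of iron-sulphur clusters and the quinone site, and the membrane arm holds the proton channels. Core subunits carry out catalysis. The accessory subunits surround and stabilise them, and assembly factors help to build the complex without remaining in it. Heart muscle is rich in mitochondria. Subunit letters follow biochemical fractions of the bovine enzyme and only partly follow the arms, so the genes are ordered below by the place of the product in the mammalian enzyme as well as by letter.

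Values are quantile-normalized intensities on the log2 scale. Arrays that differed no more than repeat arrays of 1 RNA were averaged and counted as 1 sample. That left hypoxia 1/4, 2 and 3 and normoxia 1, 2 and 3/4, where hypoxia 1/4 is the mean of the arrays labelled hypoxia 1 and 4, so that n = 3 per group. Nothing states that the samples came from separate fish, so p-values measure the spread between these samples. In limma that spread is drawn toward its trend over probe sets of like intensity. A change was called at an adjusted p under 0.05, from limma with Benjamini-Hochberg adjustment over 10851 probe sets, of which 3.98% were called. Heart muscle genes identified the tissue, among them myl7, the atrial and ventricular myosin light chain of the zebrafish heart. It measured 12.82 ± 0.04 in hypoxia and 12.84 ± 0.02 in normoxia (SD, n = 3). The 6 tested heart muscle markers had differences from -0.56 for ttn.2 to -0.02 for myl7, all below 0. In such bulk RNA, fewer cells of a type and less RNA per cell cannot be told apart.

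Transcript levels of complex I genes were lower in hearts from hypoxic fish. Of 39 genes, 38 were bright enough to be tested and 17 of these fell, while 0 rose in limma, also at an unadjusted p under 0.05. Of all probe sets, 3.01% were called lower and 0.968% higher. Among the 2234 probe sets whose mean log2 intensity was 8 or more, a level that 34 of the 38 genes reached, 8.01% were called lower. These were dimmer than the complex I genes, with a median of mean log2 intensity of 8.95, against 10.22. The difference lay below 0 for all 38 genes, between -0.73 and -0.03, with a median of -0.40. Over all probe sets 56.9% lay below 0 and the median was -0.05. All hypoxia samples were below all normoxia samples for 33 of the 38 genes, and for 17.3% of all probe sets. At an unadjusted p under 0.05, 32 of the 38 were lower, against 13.4% of all probe sets. Of the 2234 brighter probe sets 479 were lower at that threshold, and groups did not overlap, in either direction, for 915.

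These calls rest on the pooled spread of few samples. The number of genes called lower was 0 of 38 without hypoxia 3 and also without normoxia 1. In these 2 fits 29 and 28 were lower at an unadjusted p under 0.05 from limma. Of all 10851 probe sets 1739 and 1809 passed that threshold, in either direction. The number of complex I genes called lower was 1 without hypoxia 1/4, 4 without hypoxia 2, 5 without normoxia 2 and 2 without normoxia 3/4. Lower calls also dropped over all 10851 probe sets, from 327 to 0, 13, 60, 111, 75 and 48, in the same order. With the 8 samples as labelled, 30 of the 38 genes were called lower, against 8.49% of all probe sets. That fit counts as separate samples arrays that differed no more than repeats of 1 RNA. With no intensity trend in the fit, 0 of the 38 genes and 2 of the 10851 probe sets were called. The median difference was -0.43 to -0.35 over the 6 omissions of 1 sample, and all 38 genes stayed below 0 in each.

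**Figure D1:**
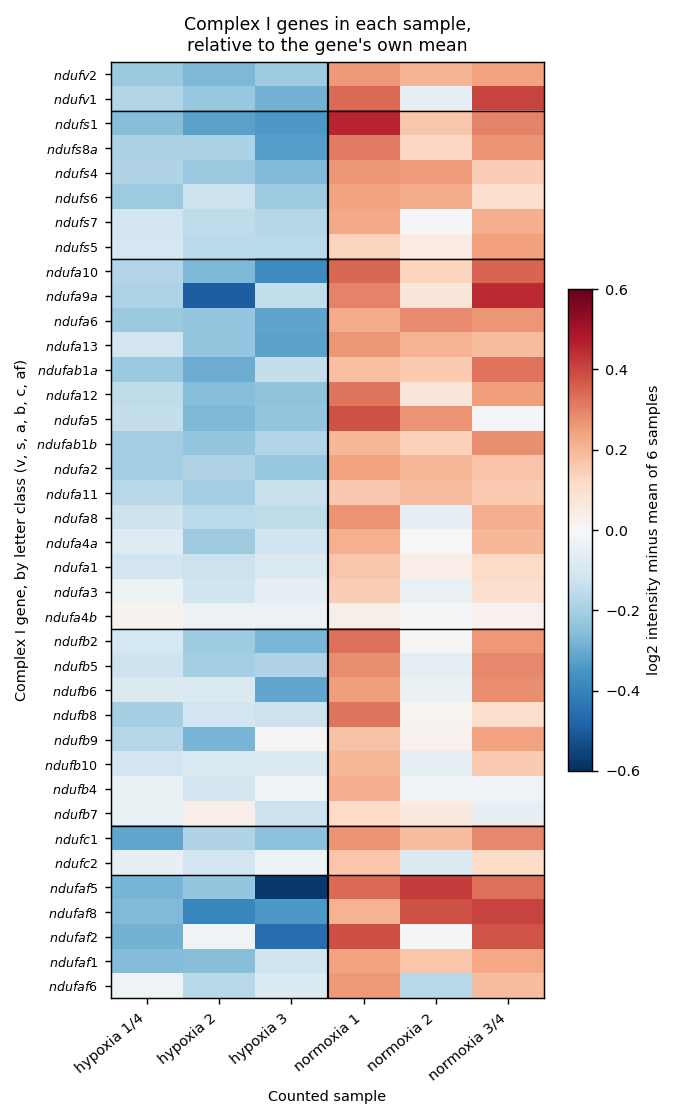
Each row is 1 of the 38 tested complex I genes and each column 1 counted sample; colour gives the log2 intensity minus that gene's mean over the 6 samples. The 3 hypoxia columns are blue for nearly every gene, and normoxia 2 is the palest of the normoxia columns, being below the gene's own mean for 12 of 38 genes.

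The lowering was shared by the hypoxia samples. The mean over the 38 genes was 9.83, 9.79 and 9.79 log2 in hypoxia 1/4, 2 and 3, against 10.24, 10.08 and 10.20 in normoxia 1, 2 and 3/4. The hypoxia samples lay close together, and normoxia 2 was the normoxia sample closest to them. Normoxia 2 had the lowest of the normoxia values for 28 of 38 genes and normoxia 1 the highest for 24. Within hypoxia the lowest value was in hypoxia 2 for 19 genes, in hypoxia 3 for 14 and in hypoxia 1/4 for 5. Arrays counted as the same sample differed by a median of 0.0369 to 0.0808 log2 over the 38 genes, depending on the pair.

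The arrays were hybridized in 3 runs, each with both groups. The median difference was -0.35 in run 1, -0.41 in run 2 and -0.26 in run 3, with 38, 38 and 35 of 38 genes below 0. In run 2 both normoxia arrays belong to normoxia 3/4, so its median rests on 1 counted normoxia sample. Run 3 held only array 5 of each group, both with an aborted wash, and these repeat RNA of sample 2 from run 1. Hypoxia 1/4 spans runs 1 and 2, so the runs are not independent. A fit to the 10 single arrays, with the counted sample as random block, called 26 genes lower, and 27 when the run was added as a fixed block. Of all 10851 probe sets these fits called 652 and 591 lower, against 327 in the fit reported above, so lower calls rose generally.

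**Figure D2:**
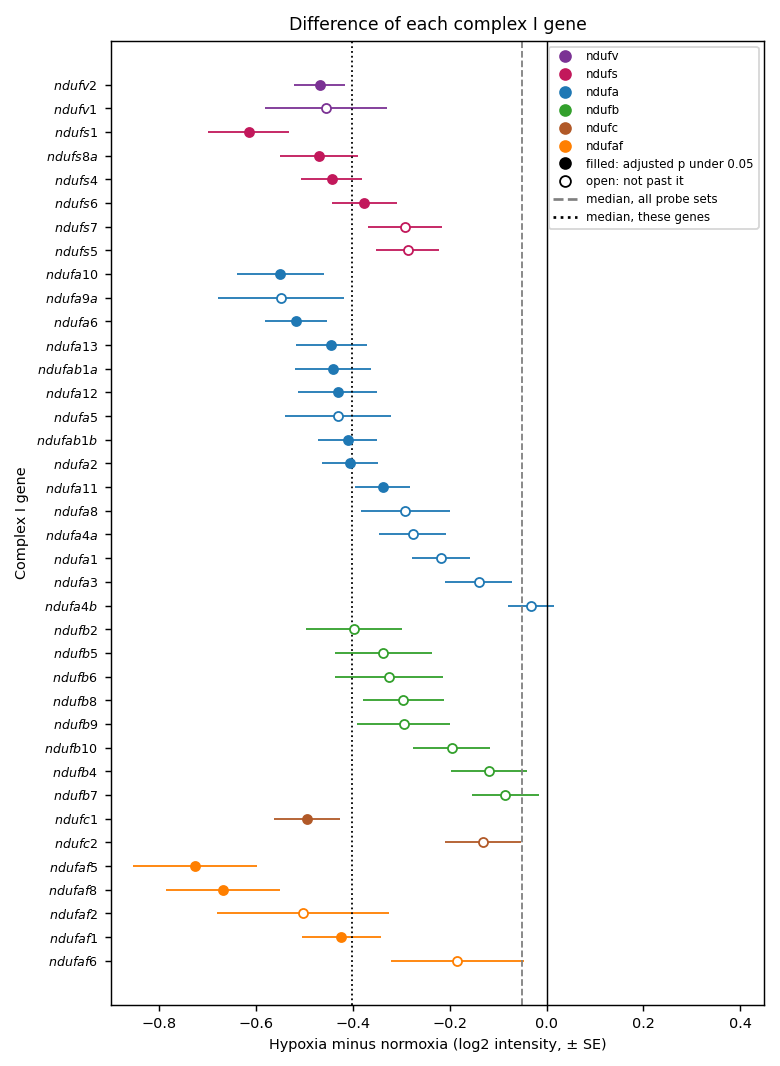
Points give hypoxia minus normoxia in log2 intensity for each of the 38 tested genes with the standard error from limma, coloured by letter class; filled points passed the adjusted threshold. All points lie left of 0, and filled points occur in every class except ndufb.

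Of the 3 core genes of the NADH dehydrogenase module, where electrons enter, 2 fell. The gene ndufs1 encodes the large iron-sulphur subunit of this module. It measured 10.31, 10.24 and 10.22 in hypoxia 1/4, 2 and 3, against 11.02, 10.73 and 10.86 in normoxia 1, 2 and 3/4. Each hypoxia sample was below each normoxia sample, by at least 0.42. The difference was -0.61 ± 0.08 (SE, n = 3, adjusted p = 0.0246), a 1.53-fold lower intensity.

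The gene ndufv2, for the subunit with a binuclear iron-sulphur cluster, had the smallest p of the complex I genes and ranked 30 among all probe sets. Its values were 10.41, 10.36 and 10.42 in hypoxia and 10.89, 10.84 and 10.87 in normoxia. Both groups were tight, and the difference of -0.47 ± 0.05 (SE, n = 3, adjusted p = 0.0169 in limma) was called in 15 of 21 alternative fits of this probe set. That was the most of any called gene, as the others were called in 8 to 12 of 21. A further ndufv2 probe set had overlapping groups and a difference of -0.22 that missed the threshold (adjusted p = 0.308 in limma). With the gene as the mean of both, the difference was -0.34 and was not called (adjusted p = 0.0583 in limma). The gene ndufv1 encodes the subunit that binds NADH and the flavin. It had 9.96, 9.91 and 9.85 in hypoxia, against 10.47, 10.07 and 10.54 in normoxia. Its difference of -0.46 was of like size, but normoxia 2 lay well below the other normoxia samples and the gene was not called (adjusted p = 0.105 in limma).

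In the Q module, which passes electrons to ubiquinone, 1 of 2 measured core genes fell. The gene ndufs8a, for a subunit that carries iron-sulphur clusters, measured 9.60, 9.60 and 9.46 in hypoxia and 10.10, 9.91 and 10.06 in normoxia. All hypoxia values were lower, with a difference of -0.47 ± 0.08 (SE, n = 3, adjusted p = 0.0324 in limma). The gene ndufs7, for the subunit next to the quinone site, had a difference of -0.29 and was not called (adjusted p = 0.0901 in limma), although its groups did not overlap.

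Of the 7 measured accessory genes of the matrix arm, 5 fell, with a median difference of -0.43. The gene ndufs4, whose loss causes Leigh syndrome in humans, had 10.08, 10.03 and 10.00 in hypoxia, against 10.53, 10.51 and 10.40 in normoxia. Its groups were separated by 0.32. The difference was -0.44 ± 0.06 (SE, n = 3, adjusted p = 0.0268 in limma).

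The gene ndufa6 encodes a protein of the LYR-motif family that docks an acyl carrier protein on the matrix arm. It measured 9.54, 9.53 and 9.44 in hypoxia and 9.98, 10.04 and 10.03 in normoxia. The difference of -0.52 ± 0.06 (SE, n = 3, adjusted p = 0.0218 in limma) was larger than the range within either group. The gene ndufa12 had 10.05, 9.94 and 9.96 in hypoxia and 10.52, 10.27 and 10.45 in normoxia. It fell by 0.43 (adjusted p = 0.0412 in limma) and was called in 8 of 21 alternative fits. With dim values of all probe sets set to the background bound, its difference stayed at -0.43 but was no longer called (adjusted p = 0.0554 in limma). The 2 other called genes of the matrix arm were ndufa2 at -0.41 and ndufs6 at -0.38. The genes ndufa9a, for a subunit related to short-chain dehydrogenases, and ndufa5 had -0.55 and -0.43 but were not called (adjusted p = 0.0745 and 0.0853 in limma), as their SEs were 0.13 and 0.11.

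Both paralogs of the acyl carrier gene, whose product sits in both arms and also serves mitochondrial fatty acid synthesis, fell. The gene ndufab1a measured 9.52, 9.44 and 9.59 in hypoxia, against 9.92, 9.90 and 10.06 in normoxia. The groups were 0.30 apart and the difference was -0.44 ± 0.08 (SE, n = 3, adjusted p = 0.0350 in limma). Differences of -0.48 and -0.56 came from its 2 further probe sets, each past the threshold. The paralog ndufab1b had -0.41 ± 0.06 (SE, n = 3, adjusted p = 0.0269 in limma).

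**Figure D3:**
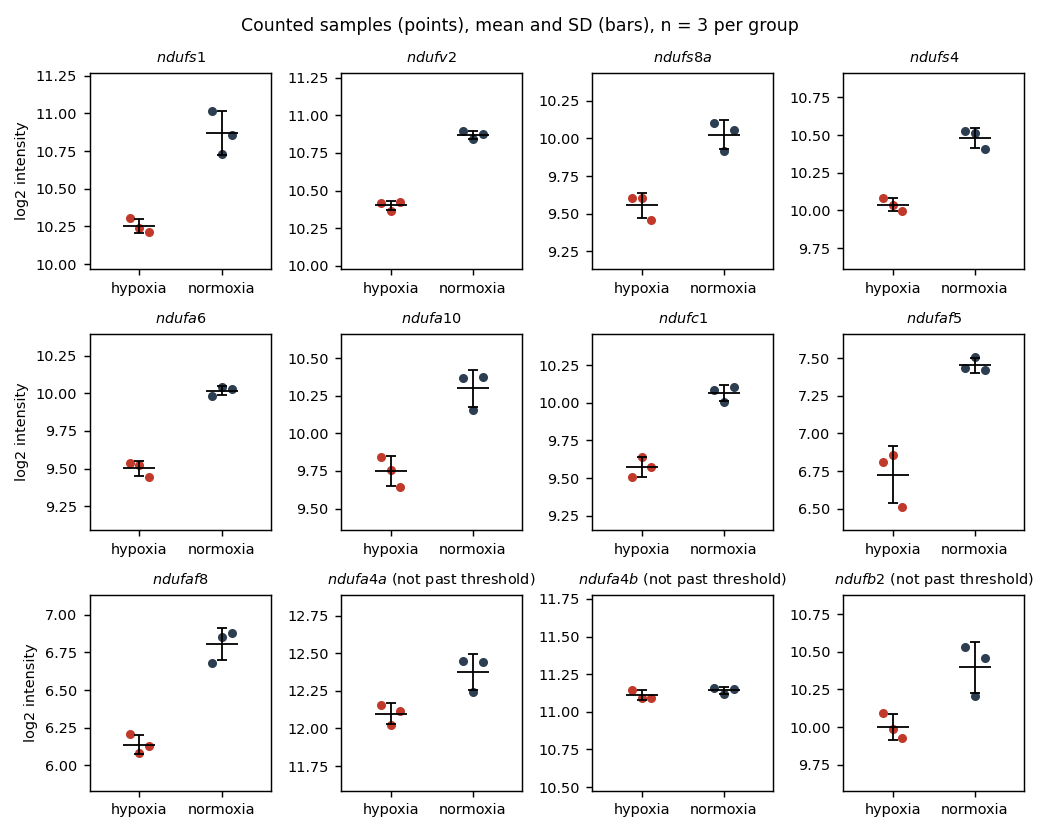
Points are the counted samples of 12 complex I genes in log2 intensity, hypoxia left and normoxia right, with the mean and SD of 3 samples; every panel spans the same log2 range. Groups are separated in all panels except ndufa4b, where the difference is -0.03.

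Of the membrane-arm accessory genes, 4 of 17 tested fell, and their median difference was -0.30, against -0.43 for the matrix-arm accessory genes. All 17 lay below 0, against 56.9% of all probe sets, and 13 were lower at an unadjusted p under 0.05 in limma, against 13.4%. Whether the arms differ was not tested. The gene ndufa10, whose product has a nucleoside kinase fold, had 9.85, 9.75 and 9.65 in hypoxia and 10.37, 10.16 and 10.37 in normoxia. This was the lowest difference in the arm, at -0.55 ± 0.09 (SE, n = 3, adjusted p = 0.0284 in limma).

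The gene ndufc1, for a small single-span subunit, measured 9.51, 9.64 and 9.57 in hypoxia, against 10.09, 10.00 and 10.11 in normoxia. It fell by 0.49 ± 0.07 (SE, n = 3, adjusted p = 0.0267 in limma). The partner gene ndufc2 had 10.44, 10.38 and 10.46 in hypoxia and 10.66, 10.41 and 10.61 in normoxia, so the groups overlapped at normoxia 2. Its difference was -0.13 (adjusted p = 0.397 in limma). The gene ndufa13, also known as grim19, had 9.90, 9.78 and 9.70 in hypoxia, against 10.28, 10.22 and 10.20 in normoxia. It fell by 0.44 (adjusted p = 0.0290 in limma), and ndufa11 by 0.34 (adjusted p = 0.0296). Of the rest outside the b class, ndufa8 had -0.29, ndufa1 -0.22 and ndufa3 -0.14, and ndufs5, for a subunit of the intermembrane-space face, had 10.72, 10.66 and 10.66 in hypoxia and 10.96, 10.87 and 11.07 in normoxia. None of these 4 was called, and ndufs5, at -0.29, came nearest (adjusted p = 0.0676 in limma).

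The ndufb genes encode subunits of the distal part of the membrane arm. None of the 8 measured passed the threshold in limma. At an unadjusted p under 0.05, 6 were lower, against 13.4% of all probe sets. All 8 lay below 0, against 56.9%, and for 7 all hypoxia samples were below all normoxia samples, against 17.3%. Of the 2234 probe sets with a mean log2 intensity of 8 or more, 479 were lower at that unadjusted threshold. Among the ndufb genes, the difference furthest from 0 was that of ndufb2. It had 10.09, 9.98 and 9.92 in hypoxia and 10.53, 10.21 and 10.46 in normoxia. All hypoxia values were below normoxia, with a difference of -0.40 ± 0.10 (SE, n = 3, adjusted p = 0.0834). The gene ndufb7 had the difference closest to 0 in the class, with 10.85, 10.93 and 10.76 in hypoxia, against 11.01, 10.95 and 10.84 in normoxia. Its groups overlapped, and it had -0.09 (adjusted p = 0.532 in limma). Between these lay ndufb5 at -0.34, ndufb6 at -0.32, ndufb8 and ndufb9 at -0.30, ndufb10 at -0.20 and ndufb4 at -0.12. A further ndufb6 probe set was under the background bound on all 10 arrays and was not tested. With the 8 samples as labelled, 5 of the 8 genes had an adjusted p under 0.05 in limma, against 8.49% of all probe sets called lower. That fit counts as separate samples arrays that differed no more than repeats of 1 RNA.

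The ndufa4 paralogs carry a complex I name, but the mammalian NDUFA4 protein is a subunit of cytochrome c oxidase. The gene ndufa4a had 12.16, 12.02 and 12.12 in hypoxia, against 12.45, 12.24 and 12.44 in normoxia. The groups did not overlap, yet the difference of -0.28 was not called (adjusted p = 0.0851 in limma). The gene ndufa4b had 11.15, 11.09 and 11.09 in hypoxia and 11.16, 11.12 and 11.15 in normoxia. Hypoxia 1/4 lay above normoxia 2, and the other hypoxia values were below all normoxia values. The difference was -0.03 ± 0.05 (SE, n = 3, adjusted p = 0.738 in limma), the closest to 0 of the 38 genes. Its sign turned to 0.04 under cyclic loess. Whether the paralogs differ in response was not tested.

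Of 6 assembly factor genes, 5 were tested and 3 of these fell. The gene ndufaf5 encodes an enzyme that, in humans, hydroxylates an arginine of NDUFS7 during early assembly. It measured 6.81, 6.86 and 6.51 in hypoxia, against 7.43, 7.51 and 7.42 in normoxia. This was the lowest difference of the 38 genes, at -0.73 ± 0.13 (SE, n = 3, adjusted p = 0.0339 in limma), a 1.65-fold lower intensity. The gene ndufaf8 encodes a partner that stabilises NDUFAF5 in human cells. It had 6.21, 6.08 and 6.13 in hypoxia and 6.68, 6.85 and 6.88 in normoxia. Its difference was next in size, at -0.67 ± 0.12 (SE, n = 3, adjusted p = 0.0340 in limma). Under cyclic loess the difference of ndufaf8 was -0.59 and was not called (adjusted p = 0.0557 in limma).

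The gene ndufaf1 belongs to the assembly complex of the membrane arm in mammals. It fell by 0.42 (adjusted p = 0.0421 in limma), whereas a second probe set had -0.31 and missed the threshold (adjusted p = 0.152), as did the mean of both at -0.36 (adjusted p = 0.0748). The gene ndufaf2, for a factor related to NDUFA12, had -0.50 and was not called (adjusted p = 0.172 in limma), its groups being 0.01 apart. In run 3 its difference was 0.07. The gene ndufaf6, for a factor of early assembly, had 7.54, 7.40 and 7.48 in hypoxia, against 7.83, 7.40 and 7.75 in normoxia. Here normoxia 2 had the lowest of the 6 values, and the difference was -0.18 (adjusted p = 0.493 in limma). The gene ndufaf4, a factor for the Q module, was too dim for the test. Its normalized intensity was -6.59 to 14.0 units on the hypoxia arrays, all under the background bound of 27.0, and 13.8 to 39.7 on the normoxia arrays, 3 of which were above the bound. With no filter on dim probe sets it was not called (adjusted p = 0.333 in limma).

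By letter, 8 of 15 ndufa genes, 0 of 8 ndufb, 1 of 2 ndufc, 4 of 6 ndufs, 1 of 2 ndufv and 3 of 5 ndufaf genes fell. The class medians were -0.41, -0.30, -0.31, -0.41, -0.46 and -0.50, in the same order. Across the 33 genes that are not assembly factors, the difference was closer to 0 for probe sets of higher mean intensity. Pearson r was 0.55 across genes, all measured in the same 6 samples, and 0.51 with the 5 assembly factors. The 33 include both ndufa4 paralogs, and r without them was not computed. Genes are not independent replicates. The part of intensity in the order of the classes was not tested.

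Complex I genes outside the nduf names were measured for 5 of 22 on a list of assembly and associated factors and mitochondrially encoded subunits. None of the 4 bright enough passed the threshold in limma. All 4 lay below 0, against 56.9% of all probe sets. At an unadjusted p under 0.05, 3 of the 4 were lower, against 13.4% of all probe sets. The gene aifm1, for a flavoprotein needed for respiratory chain biogenesis, had -0.59 (adjusted p = 0.0507 in limma). The other differences were -0.42 for ecsit, -0.39 for timmdc1 and -0.28 for tmem126a. Of 9 measured genes of iron-sulphur cluster biogenesis, nfs1, the cysteine desulphurase that supplies the sulphur, was the 1 called, at -0.67 ± 0.11 (SE, n = 3, adjusted p = 0.0287 in limma). The median of these 9 was -0.19, with 6 below 0 and 3 above. Of all probe sets 3.01% were called lower, and of those with a mean log2 intensity of 8 or more 8.01%. Of 8 tested regulators of mitochondrial biogenesis the coactivator gene ppargc1b fell, with 6.18, 6.30 and 5.71 in hypoxia and 7.19, 6.78 and 7.23 in normoxia. Its difference was -1.01 ± 0.20 (SE, n = 3, adjusted p = 0.0464 in limma). The genes nrf1 (0.08), gabpa (-0.01) and tfam (0.14), for transcription factors of respiratory chain genes and of mitochondrial DNA, were not called. Of the 8 regulators 4 lay below 0 and 4 above, with a median of 0.04.

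Like values were found for other mitochondrial lists, within the respiratory chain and outside it. The median difference was -0.43 for 7 genes of complex II, -0.41 for 11 of complex III, -0.31 for 14 of complex IV and -0.30 for 18 of complex V, with 1, 5, 7 and 9 genes called lower. For 19 genes of the citric acid cycle it was -0.35, with 7 called lower, and for 59 genes of the mitochondrial ribosome -0.39, with 12 called lower and all 59 below 0. For complex I it was -0.40 over 38 genes. No difference between these lists was tested, and they share all samples.

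Markers of other tissues also differed between these samples. All 8 tested liver markers were higher in hypoxia, and 2 of them were called. Their mean per sample was 10.01 to 11.14 log2 in hypoxia and 5.83 to 8.99 in normoxia, lowest in normoxia 1. The 7 red blood cell markers had means of 11.02 to 11.37 in hypoxia and 10.40 to 10.47 in normoxia, with 5 called higher. The 5 epithelial markers had means of 6.51 to 8.53 in hypoxia and 6.10 to 7.04 in normoxia, and 2 were called higher. None of the genes in these 3 lists was at 0 in any sample. The lowest was the epithelial transcription factor gene elf3, with 3.97, 3.76 and 4.30 in normoxia 1, 2 and 3/4, all under the background bound. Also under it were crp at 4.62 and fgb at 4.37 in normoxia 1, and cldne at 4.16 in hypoxia 1/4 and 4.62 in normoxia 3/4. Of these, elf3 and crp were among the genes called higher. Pancreas and skeletal muscle markers had differences on both sides of 0. Of 3 tested pancreas markers, the chymotrypsinogen gene ctrb.1 fell, with 5.09, 4.92 and 5.93 in hypoxia and 8.77, 7.99 and 8.67 in normoxia. Its difference was -3.16 ± 0.32 (SE, n = 3, adjusted p = 0.0151 in limma), while the other 2 had differences above 0 and were not called. The mean of the 3 was 5.89 to 7.01 in hypoxia and 6.46 to 7.47 in normoxia. The 4 tested skeletal muscle markers had means of 9.48 to 10.58 in hypoxia and 8.89 to 11.17 in normoxia, and none was called in limma, with 1 lower at an unadjusted p under 0.05. None of the 5 leukocyte markers or of the 1 measured endothelial marker was called either, and none of them was lower at an unadjusted p under 0.05. The 6 heart muscle markers had a median difference of -0.08, with means of 12.24 to 12.32 in hypoxia and 12.38 to 12.49 in normoxia. All 6 lay below 0, from -0.56 for ttn.2 to -0.02 for myl7, and 2 were lower at an unadjusted p under 0.05. The 1 called was ttn.2 (adjusted p = 0.0175 in limma). The part of tissue makeup in the complex I result was not tested.

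The size of the difference depended on the scaling between arrays. The median over the 38 genes was -0.66 under median scaling, with 32 genes called lower and a median of all probe sets of -0.14. It was -0.59 for the deposited values with no scaling, with 0 called in limma and 33 at an unadjusted p under 0.05. Of all 10851 probe sets 1606 passed that threshold there, in either direction. Under cyclic loess the complex I median was -0.41, with 15 called. Relative to the median of all probe sets, the complex I median was -0.35 as reported, and -0.52, -0.52 and -0.43 under median scaling, no scaling and cyclic loess.

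**Figure D4:**
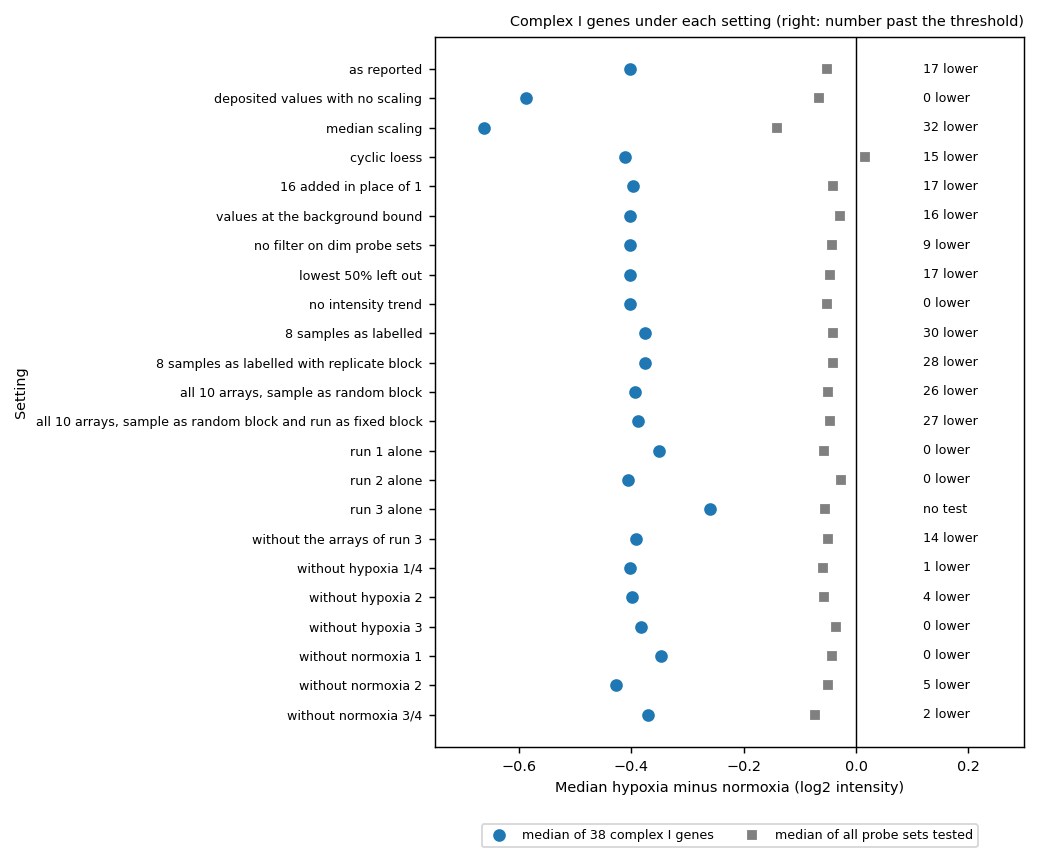
Circles give the median hypoxia minus normoxia of the 38 complex I genes and squares that of all probe sets tested, in log2 intensity, under each setting; the figure at the right is the number of complex I genes past the threshold. The circles lie between -0.66 and -0.26 and left of the squares in each setting, while the number called runs from 0 to 32.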

How the data were processed

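The deposited table holds 1 intensity per probe set and array on a linear scale, with values under 0, and the software that made it is not given in the sources used here. Each array's deposited instrument record, another unit, is text on chip and fluidics; it gave the 3 hybridization runs, and an aborted wash for run 3. Median intensity was 36.2 to 51.6 per array, and the number of arrays limits the precision. Values were quantile normalized, 1 was added, results under 1 were set to 1, and log2 was taken. The 115 control probe sets and the lowest 30% of mean log2 intensity were left out.

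Arrays of 1 group were averaged when the SD of their log2 differences over 2247 bright probe sets was at most 0.151, that of the less alike technical pair. This joined hypoxia 1 with 4 (0.112), normoxia 3 with 4 (0.0927) and array 5 with array 2 of each group. The description of hypoxia array 5 also carries the number 4. It was taken as the stated repeat of sample 2, from which its SD was 0.105.

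The 2 groups were compared with limma 3.58.1 in R 4.3.3 (lmFit, then eBayes with an intensity trend, two-sided). The fit was tested on simulated data. The smallest exact permutation p that 3 against 3 samples allow is 0.1. The background bound was 2 times the SD of 13.5 from the negative values. For a gene on several probe sets, the 1 with the highest mean was used. Symbols came from GEO's platform annotation, where 10795 probe sets had 1 symbol, 135 several and 4572 none; all 39 nduf symbols matched current RefSeq symbols by gene ID, and 12 further RefSeq nduf genes were not analysed here. A probe set with several symbols, nduf among them, was left out (1). Members, lists and roles were chosen with earlier results of these data known. Sample values are given for the 12 largest called differences, for the largest and smallest difference of each letter class and for the ndufa4 paralogs; the values of ppargc1b and ctrb.1 were added after they were seen. No sequence was printed, since the tables used here hold none. Figures used Python 3.11.15 and matplotlib 3.10.9.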

Additional observations from a re-analysis of the deposited data

How the results depend on the processing

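Direction held widely and calls did not. Of 38 genes, 17 were called lower as reported. The number was 17 with 16 added or with the lowest 50% left out, and 16 with values at the background bound. It was 15 under cyclic loess, where ndufaf8 was among those lost. With each gene as the mean of its probe sets it was also 15 (ndufv2 and ndufaf1 lost). It was 14 without run 3 (an alternative chosen after seeing the data) and 9 with no filter. It was 32 under median scaling, 0 for the deposited values and 0 with no intensity trend. In the last 2 limma fits 33 and 27 genes were lower at an unadjusted p under 0.05. Of all 10851 probe sets 1606 and 2181 passed that threshold, in either direction. With 8 samples as labelled 30 genes were called, with the replicate block 28, with all 10 arrays 26 and with the run as a fixed block 27. All 17 were among each of these. Whether the label numbers pair the samples cannot be told from these data. Deviations of same-numbered samples correlated at -0.09 to 0.18 and those of differently numbered samples at -0.15 to 0.15. The deviations of hypoxia 1 and hypoxia 4, counted as 1 sample, both correlated most with those of normoxia 1 (0.18 and 0.15). Run 1 alone gave 0 in limma, with 23 at an unadjusted p under 0.05. Of all probe sets 1655 passed that threshold in run 1, in either direction. Run 2 alone held 1 counted normoxia sample, so only its median difference is given. Leaving out 1 sample gave 0 to 5, each from fewer samples. For all probe sets the calls were 432 as reported, 103 for deposited values, 790 under median scaling, 171 with no filter, 2 with no trend, 1392 with 8 samples, 1067 with the replicate block, 1012 with all 10 arrays, 869 with the run block, 0 (1655 at an unadjusted p under 0.05) and 11 in runs 1 and 2, and 1 to 218 without 1 sample. Lower calls were 327 of 432 as reported, 60 of 103 for the deposited values, 228 of 368 under cyclic loess and 714 of 790 under median scaling. The complex I median was -0.40 as reported, -0.59 for deposited values, -0.66 under median scaling and -0.26 in run 3. Signs turned for ndufa4b under cyclic loess (0.043) and in run 3 (0.031), and for ndufaf2 (0.070) and ndufaf6 (0.016) in run 3. Beyond the alternatives with fewer samples or fewer arrays, the cause was not tested.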
